A study of Mus musculus with 20 samples.

Results

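The transcriptomes of hematopoietic stem cells (HSCs) from mice with and without the histone demethylase gene Kdm6b were compared genome-wide in 6 RNA-seq libraries of the 20 samples of the series. The members are the 3 libraries titled 6bKO RNA-seq, here Kdm6b-KO, and the 3 titled Control RNA-seq. Control mice were Vav-CRE:Kdm6b+/+ and Kdm6b-KO mice Vav-CRE:Kdm6b fl/fl, so both groups carried the Cre transgene and differed in whether Kdm6b was flanked by loxP sites. All animals were C57BL/6 mice aged 8 weeks, and no treatment is given in the labels for these libraries. Each library came from the pooled whole bone marrow of 3 male and 3 female mice and is labelled a biological replicate, so the tests below measure the spread between 3 pools per group and not between single animals. HSCs were sorted as lineage-negative, cKit+, Sca1+, CD150+ and CD48- cells. The Vav promoter drives Cre in all blood lineages and in part of the endothelium, so the deletion was not limited to HSCs. Of 49671 gene IDs in the count files, 15185 had enough counts to be tested.

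Kdm6b removes methyl groups from lysine 27 of histone H3, a mark that Polycomb repressive complex 2 deposits and that is found over silent developmental and inducible genes. Its paralog Kdm6a, on the X chromosome, carries the same catalytic domain and works inside enhancer complexes. Kdm6b is itself induced by inflammatory signals, and in blood cells it is best known for helping to switch on inducible genes. HSCs are rare, mostly quiescent cells that sustain all blood lineages.

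Kdm6b itself did not separate the groups at the level of whole-gene counts. It stood at 92.0, 282.5 and 220.6 CPM (read counts scaled to a common library size) in Control replicates 1 to 3 and at 142.5, 202.1 and 191.3 CPM in Kdm6b-KO (a log2 fold change of -0.15 with an SE of 0.35; adjusted p = 0.882). Which exons were deleted is not stated in the labels, and a count over all exons can include those that remain, so this value does not check the genotype. Kdm6a stood at 86.8, 82.2 and 82.5 CPM against 69.5, 80.4 and 65.1 CPM, with every Kdm6b-KO value below every Control value (log2 fold change -0.23 with an SE of 0.18; adjusted p = 0.590).

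The libraries held 6793873 to 19336121 counts in genes, and 3 counts corresponded to 0.148 to 0.461 CPM. Transcripts of the sort markers were present in all 6 libraries, with Kit at 781.1 to 2169 CPM and Slamf1, which encodes CD150, at 49.7 to 80.8 CPM, and Cd48 was at 4.60 to 16.7 CPM. Of 18 listed markers of T and NK cells 5 were tested. Cd3e and Cd8a had at most 1 count in any library, while Nkg7 stood at 48.4 to 176.6 CPM and Lck at 24.1 to 38.2 CPM in groups that overlapped. The other 3 tested were higher in Kdm6b-KO at an unadjusted p under 0.05 with 0 called, and the median log2 fold change of the 5 was 0.95, while their summed level was 123.6 to 218.4 CPM in Control and 95.3 to 161.6 CPM in Kdm6b-KO. Among the other marker lists with 0 called the median was -0.53 for neutrophil genes, -0.41 for the 8 tested B cell genes and -0.99 for the 6 tested genes of mast cells, basophils and eosinophils, whose summed level was highest in Kdm6b-KO replicate 1 (209.6 CPM) and lowest in replicates 2 and 3 (9.70 and 7.87 CPM). Also with 0 called, the median was 0.19 for megakaryocyte genes, 0.06 for endothelial and stromal genes and -0.12 for monocyte and dendritic cell genes. Neutrophil granule genes were present and unequal: the 16 tested of 18 listed markers summed to 3875, 1259 and 2236 CPM in Control and to 4577, 201.5 and 203.1 CPM in Kdm6b-KO. Xist, which is transcribed from the inactive X chromosome of female cells, stood at 380.9 to 442.5 CPM in Control and 289.1 to 336.6 CPM in Kdm6b-KO (adjusted p = 0.408), while the 5 tested genes of the Y chromosome overlapped between the groups. The part of RNA from these cell types or of the sex composition of the pools in the results below was not tested.

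Few genes passed the test across the transcriptome, and those that did had large differences. With edgeR's quasi-likelihood test and Benjamini-Hochberg adjustment, 70 of 15185 genes differed at an adjusted p under 0.05, which is 0.461% of those tested. Of these, 37 were higher in Kdm6b-KO (0.244%) and 33 lower (0.217%). Scaling by library totals in place of TMM factors gave 70 higher and 30 lower, as it moved the median log2 fold change of all tested genes from -0.00125 to 0.147. All 70 differed by more than 2-fold under the TMM scaling: the smallest difference was 2.07-fold, 36 genes exceeded 4-fold and 14 exceeded 8-fold. The reverse did not hold. Of 1069 genes with a difference of over 2-fold, 999 were not called, and in 612 of those 999 the 3 Kdm6b-KO values lay entirely above or below the 3 Control values. Over all tested genes 3113, or 20.5%, had such non-overlapping groups (1672 higher, 11%, and 1441 lower, 9.49%). Before adjustment, 2254 genes had a p under 0.05 (14.8%), of which 1158 were higher (7.63%) and 1096 lower (7.22%).

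**Figure D1:**
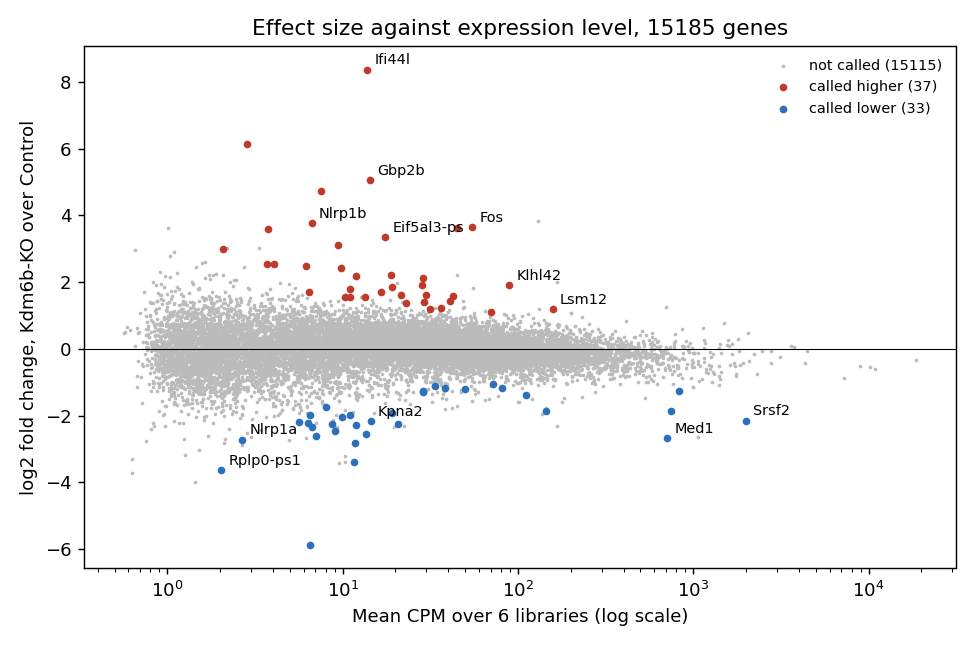
Log2 fold change of Kdm6b-KO over Control against the mean CPM of the 6 libraries (log scale) for the 15185 tested genes; grey points are not called, red points are called higher and blue points called lower. Every called gene lies more than 1 from 0, as do 999 genes that were not called. The cloud narrows from left to right up to 1000 CPM. At 100 CPM or more 1 called gene is above 0 and 6 are below.

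How large a difference had to be to pass depended on the expression level. Genes were binned by their mean CPM over all 6 libraries, a level that also depends on transcript length. The median standard error of the log2 fold change was 0.80 in the 264 genes under 1 CPM, 0.50 in the 5070 genes from 1 to 10 CPM, 0.24 in the 7412 genes from 10 to 100 CPM and 0.20 in the 2368 genes from 100 to 1000 CPM. The median size of the log2 fold change, whatever its sign, narrowed along with it, at 0.51, 0.45, 0.25 and 0.21. In the 71 genes at 1000 CPM or more both were wider again, with a median standard error of 0.26 and a median size of 0.42. No gene under 1 CPM was called, although 59 of the 264 differed by more than 2-fold and 18 had an unadjusted p under 0.05. From 1 to 10 CPM the smallest called log2 difference was 1.70, and from 10 to 100 CPM it was 1.05. From 100 to 1000 CPM it was 1.19, and the 1 called gene at 1000 CPM or more differed by 2.15. The bin from 10 to 100 CPM held 40 of the 70 called genes (25 higher and 15 lower), the bin from 1 to 10 CPM held 23 (11 higher and 12 lower), and 7 lay at 100 CPM or more. These splits depend on the binning, since the change of a called gene enters its own mean. Binned by the Control mean alone, 13 higher and 23 lower called genes lay from 10 to 100 CPM. From 1 to 10 CPM there were 17 higher and 3 lower, and under 1 CPM 7 higher and 0 lower.

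The direction of the differences turned with the level. From 10 to 100 CPM, 764 genes had an unadjusted p under 0.05 and were higher in Kdm6b-KO, against 462 lower. From 100 to 1000 CPM the counts were 78 higher and 316 lower, and among the 71 genes at 1000 CPM or more they were 0 higher and 18 lower. Median log2 fold changes in these bins were 0.05, -0.14 and -0.39, beside -0.00125 over all genes. With library totals, the bin from 100 to 1000 CPM lost its tilt (median 0.01, 175 higher and 151 lower), while the bin at 1000 CPM or more kept its sign (median -0.23, 1 higher and 12 lower). Without any 1 library the median at 1000 CPM or more ranged from -0.48 to -0.19, the value nearest 0 being that without Control replicate 2. Bins set on the Control mean alone gave 689 higher and 491 lower from 10 to 100 CPM at an unadjusted p under 0.05. From 100 to 1000 CPM they gave 50 and 349, and at 1000 CPM or more 0 and 30. Either way of binning uses values that are also compared.

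**Figure D2:**
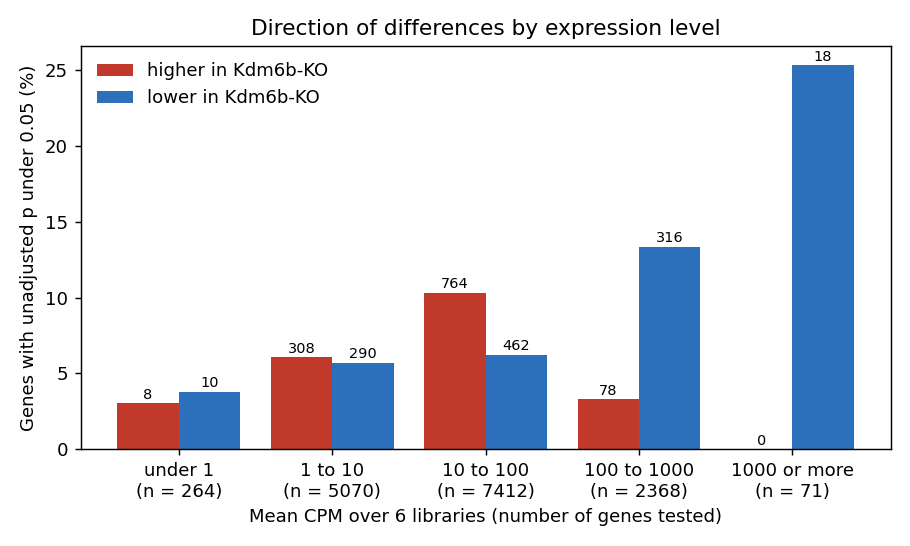
Share of the genes of each expression bin (mean CPM of the 6 libraries) with an unadjusted p under 0.05, split by direction; numbers above the bars are genes. Higher genes outnumber lower genes from 10 to 100 CPM (764 against 462) and the reverse holds from 100 CPM upward (78 against 316, then 0 against 18).

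The raw share of counts of the same bin had the same direction. The 71 genes at 1000 CPM or more held 17.7%, 18.4% and 16.8% of the counts in Control replicates 1 to 3 and 15.8%, 15.5% and 13.8% in Kdm6b-KO, so the groups did not overlap. Genes entered this bin by their mean over these same 6 libraries, and some reached 1000 CPM through Control alone. The share is therefore not a separate check of the tilt. Most of these abundant genes were lower without passing the adjusted test. Abcg1, a cholesterol exporter, stood at 1706, 2555 and 1476 CPM in Control and at 868.3, 940.7 and 881.6 CPM in Kdm6b-KO (a log2 fold change of -1.09 with an SE of 0.25; adjusted p = 0.0734). Cdk6, the kinase that drives HSCs out of quiescence, stood at 1541, 2384 and 1215 CPM against 871.7, 943.5 and 760.5 CPM (log2 fold change -0.997 with an SE of 0.26; adjusted p = 0.117). Fli1, an ETS factor of the stem cell program, stood at 2074, 1833 and 1412 CPM against 1187, 1134 and 946 CPM (log2 fold change -0.70 with an SE of 0.23; adjusted p = 0.189). In these 3 genes every Kdm6b-KO value lay below every Control value, and the Kdm6b-KO values lay closer together than those of Control. Of the 21 genes at this level with non-overlapping groups, the 1 that was higher in Kdm6b-KO was Eef2, the ribosomal translocase, at 1502 to 1915 CPM in Control and 2059 to 2987 CPM in Kdm6b-KO (adjusted p = 0.371). Eef2 and the 3 genes before it were named after their values were seen, except Fli1.

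At 100 CPM or more, 7 genes passed. Srsf2, a serine- and arginine-rich splicing factor that is recurrently mutated in myeloid neoplasms, was the only called gene at 1000 CPM or more. It stood at 2030, 5175 and 2602 CPM in Control and fell to 770.4, 632.1 and 799.8 CPM in Kdm6b-KO (a log2 fold change of -2.15 with an SE of 0.33; adjusted p = 0.00749), and it overlaps Mfsd11 in the annotation. The annotated neighbour of Srsf2 on the genome, Mettl23, which encodes a methyltransferase, showed nearly the same profile, with 740.6, 1852 and 940.8 CPM against 330.3, 271.7 and 367.9 CPM. Mettl23 overlaps Jmjd6 and was called in 3 of the 6 fits that leave out a library, with a highest adjusted p of 0.155. Med1, the Mediator subunit that binds nuclear receptors and GATA1, fell from 1279, 1584 and 817.2 CPM to 220.7, 172.0 and 180.0 CPM (log2 fold change -2.68 with an SE of 0.27; adjusted p = 0.000208). The groups did not overlap, and the 3 Kdm6b-KO values of Med1 lay close together.

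The other 4 called genes at this level were Stxbp4, Gid4, Nfia and Lsm12. Stxbp4, which encodes a syntaxin-binding protein, fell from 225.0, 247.1 and 211.4 CPM to 65.6, 75.3 and 47.8 CPM (log2 fold change -1.86 with an SE of 0.21; adjusted p = 0.000429). Its annotated neighbour Cox11, a copper chaperone for cytochrome c oxidase, fell from 23.0, 38.1 and 29.6 CPM to 10.6, 8.39 and 5.19 CPM. Gid4, the substrate receptor of a ubiquitin ligase, fell from 144.8, 206.7 and 130.4 CPM to 53.9, 65.1 and 66.3 CPM (log2 fold change -1.38 with an SE of 0.21; adjusted p = 0.00705). Nfia, a transcription factor that influences erythroid and granulocytic fate, fell from 1278, 1313 and 911.9 CPM to 583.2, 485.2 and 401.9 CPM (adjusted p = 0.0303). Nfia overlaps 5 other annotated genes and was called in 3 of the 6 fits that leave out a library, with a highest adjusted p of 0.288. The 1 gene that rose at this level was Lsm12, an RNA-binding Sm-like protein, from 99.1, 83.7 and 105.6 CPM to 228.9, 200.8 and 229.1 CPM (log2 fold change 1.19 with an SE of 0.19; adjusted p = 0.00770). All but Nfia of the 7 genes lie on chromosome 11.

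**Figure D3:**
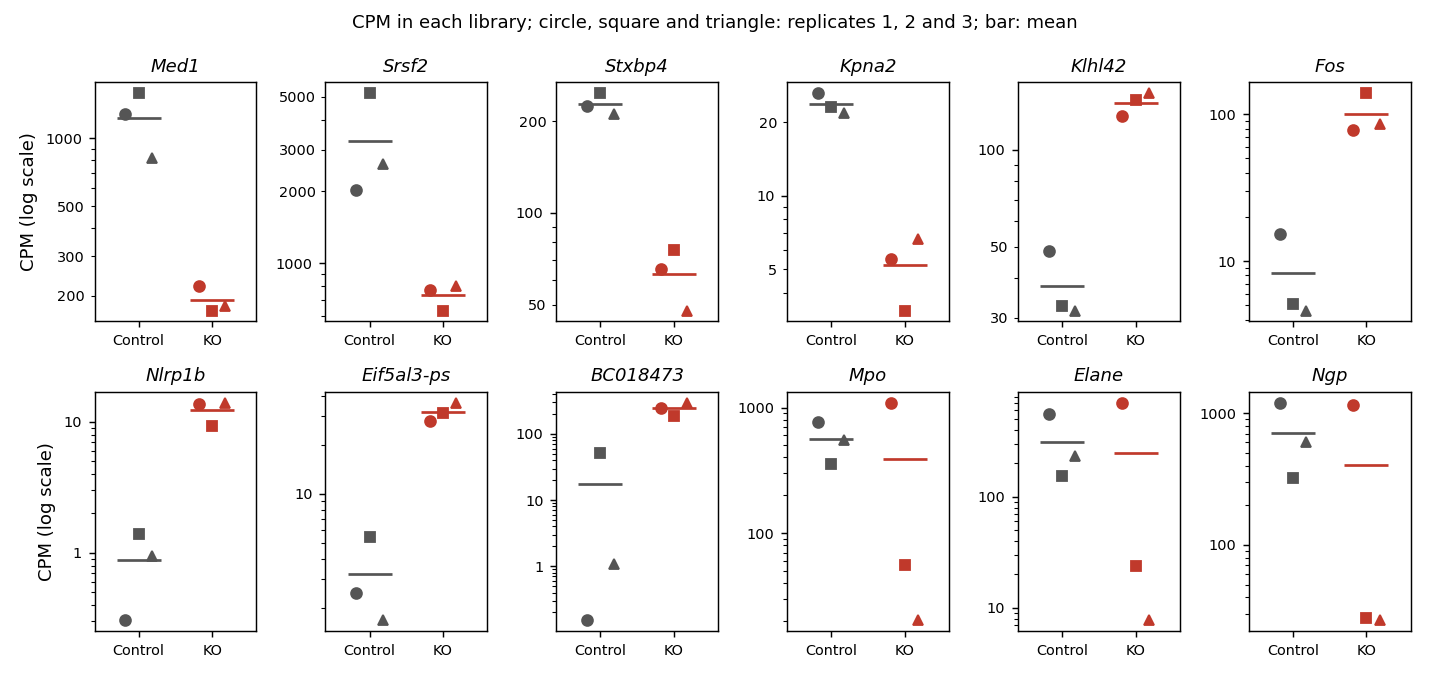
CPM of 12 genes in each library on a log scale; circles, squares and triangles are replicates 1, 2 and 3, and bars are group means. The first 8 genes passed the test and their groups do not overlap; BC018473 differs 14.2-fold but spreads from 0.154 to 50.7 CPM within Control, and Mpo, Elane and Ngp spread widely within Kdm6b-KO.

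Between 10 and 100 CPM the largest fold changes were near on-off differences. Ifi44l, an interferon-induced gene, had 1, 1 and 0 counts in Control and 452, 264 and 292 counts in Kdm6b-KO. The ratio of summed counts scaled to library size was 346, with an exact binomial interval from 95.7 to 2860 that covers counting error only. Gbp2b, an interferon-induced guanylate-binding GTPase, stood at 0.922, 0.381 and 1.10 CPM in Control and rose to 41.5, 29.1 and 13.2 CPM (log2 fold change 5.05 with an SE of 0.50; adjusted p = 0.000429). It belongs to a cluster of closely similar Gbp genes, so its count may share reads with them. Klhl42, an adaptor of a cullin ubiquitin ligase, rose from 48.5, 32.7 and 31.6 CPM to 127.4, 143.0 and 150.3 CPM (log2 fold change 1.90 with an SE of 0.21; adjusted p = 0.000429). Fos, which forms AP-1 together with Jun proteins, stood at 15.2, 5.08 and 4.60 CPM in Control and at 78.3, 139.2 and 85.5 CPM in Kdm6b-KO. Dusp1, a phosphatase that inactivates MAP kinases, stood at 13.7, 6.61 and 11.8 CPM against 33.4, 64.2 and 42.2 CPM. In both, Kdm6b-KO replicate 2 was the highest library and the groups did not overlap.

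Among called genes that fell in the same bin, Kpna2, an importin that carries cargo into the nucleus and peaks in mitosis, went from 26.3, 23.1 and 21.7 CPM to 5.51, 3.38 and 6.63 CPM (log2 fold change -2.17 with an SE of 0.30; adjusted p = 0.00281). Xaf1, an interferon-inducible antagonist of the apoptosis inhibitor XIAP, fell from 75.4, 64.8 and 69.1 CPM to 30.7, 32.8 and 27.2 CPM (log2 fold change -1.21 with an SE of 0.19; adjusted p = 0.00840). Within each group of Xaf1 the 3 values lay close together. Cbx3, which encodes the heterochromatin protein HP1 gamma, fell from 98.5, 150.1 and 86.1 CPM to 52.1, 55.7 and 41.0 CPM (adjusted p = 0.0353). Without Kdm6b-KO replicate 3 the adjusted p of Cbx3 was 0.288.

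From 1 to 10 CPM, called genes rested on few counts per library. The neighbouring paralogs Nlrp1b and Nlrp1a, sensors that assemble an inflammasome, moved in opposite directions. Nlrp1b rose from 0.307, 1.398 and 0.950 CPM to 13.8, 9.37 and 14.1 CPM (log2 fold change 3.76 with an SE of 0.46; adjusted p = 0.000834). Nlrp1a fell from 2.46, 3.94 and 7.53 CPM to 0.787, 0.436 and 0.841 CPM (log2 fold change -2.72 with an SE of 0.57; adjusted p = 0.0486). Reads shared between the 2 paralogs could be split by the counting, so each value is uncertain, and Nlrp1a passed in 1 of the 6 fits that leave out a library. Aoc2, an amine oxidase gene, rose from 1.84, 2.16 and 1.83 CPM to 9.27, 18.6 and 22.4 CPM (log2 fold change 3.11 with an SE of 0.39; adjusted p = 0.00110). Rapgefl1, which encodes a protein related to Rap exchange factors, rose from 3.84, 2.54 and 2.85 CPM to 11.5, 18.7 and 19.2 CPM (log2 fold change 2.43 with an SE of 0.34; adjusted p = 0.00323). Ifit1bl1, a member of the interferon-induced Ifit family, fell from 14.7, 19.6 and 13.8 CPM to 4.98, 2.51 and 4.16 CPM (log2 fold change -2.03 with an SE of 0.34; adjusted p = 0.0116) and overlaps 4 other annotated genes, among them Ifit1. Over the whole set, 29 of the 59 called genes with a position overlapped at least 1 other annotated gene, and whether the counting used strand is not stated in the sources used here.

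Called genes included immediate-early genes, whose promoters are often driven by CREB through the cAMP response element (CRE) or by serum response factor through the CArG box. The promoter windows of RefSeq for GRCm38.p6 were therefore searched over 250 bases before each start for TGACGTCA, which reads the same on both strands, and for the CArG box. Of the called higher genes, 24 of 37 had a window and 2 of these 24 held the CRE, 8.33% against 2.92% of 10476 tested genes and 1.77% of all 27025 genes with a window. None of the 18 called lower genes with a window held it. Among the 33 immediate-early genes with a window 5 held it (15.2%), namely Btg2, Dusp1, Maff, Plk2 and Ppp1r15a. Both called genes are shown, since they rose and carry the same 8 letters, in capitals. Both belong to the immediate-early list that prompted the search. Ppp1r15a stood at 33.9, 44.1 and 55.7 CPM in Control and at 82.2, 115 and 88.4 CPM in Kdm6b-KO (adjusted p = 0.0439). It was called in 2 of the 6 fits that leave out a library, with a highest adjusted p of 0.243. Dusp1 is drawn from chr17:26508578-26508645 and Ppp1r15a from chr7:45526269-45526310, both on the minus strand and 5′ to 3′.
Dusp1: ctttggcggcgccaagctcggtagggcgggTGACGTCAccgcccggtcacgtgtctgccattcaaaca
Ppp1r15a: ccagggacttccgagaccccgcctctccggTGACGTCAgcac
The CArG box was found in 0 called genes with a window, in 2 of the 33 immediate-early genes (Dusp5 and Zfp36) and in 1.32% of tested genes. These matches are a description of letters and not of bound sites. Only exact matches within 250 bases were searched, so a gene without a match may hold the element farther away or in a variant form.

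Gene class was the next axis of comparison. Protein-coding genes accounted for 45 of the 70 called genes, 30 higher and 15 lower, which is 0.368% of the 12213 tested, beside 0.461% of all genes. Long non-coding RNAs gave 1 higher and 6 lower among 866 tested (0.808%), pseudogenes 4 higher and 3 lower among 503 (1.39%), and genes with no class in RefSeq 2 higher and 9 lower among 1548 (0.711%). None of the 50 small or other RNAs was called, with 5 at an unadjusted p under 0.05. The difference between classes was largest at low level. From 1 to 10 CPM, 264 protein-coding genes had an unadjusted p under 0.05 and were higher, against 87 lower, while the counts in the other classes together were 44 higher and 203 lower. The median log2 fold change was 0.04 for protein-coding genes, -0.10 for long non-coding RNAs, -0.29 for genes without a class and -0.41 for pseudogenes. Library totals left the order of these medians and the sign of the last 2 in place (-0.14 for genes without a class and -0.26 for pseudogenes), while the median of long non-coding RNAs turned to 0.05.

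Part of the class difference lay in 1 library, most of all for pseudogenes. Relative to the Control mean, the median log2 level of pseudogenes was -0.06 in Kdm6b-KO replicate 1, -0.14 in replicate 2 and -0.71 in replicate 3. Genes without a class showed -0.17, -0.02 and -0.47, and long non-coding RNAs -0.04, -0.03 and -0.20. Kdm6b-KO replicate 3 also had the most counts in genes and yet 22025 detected genes, fewer than replicates 2 (25971) and 1 (27316). Without it the pseudogene median was -0.18, with 9 higher and 17 lower at an unadjusted p under 0.05, in place of 13 and 42. Genes without a class kept a tilt in the same fit, with a median of -0.18 and 27 higher and 121 lower, in place of 38 and 211. Long non-coding RNAs gave a median of -0.06 and 19 higher and 43 lower, in place of 22 and 72. The nuclear long non-coding RNA Malat1 was also lowest in Kdm6b-KO replicate 3, at 11740 to 12710 CPM in Control and at 8690, 11730 and 4461 CPM in Kdm6b-KO (adjusted p = 0.463). What sets this library apart was not tested.

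**Figure D4:**
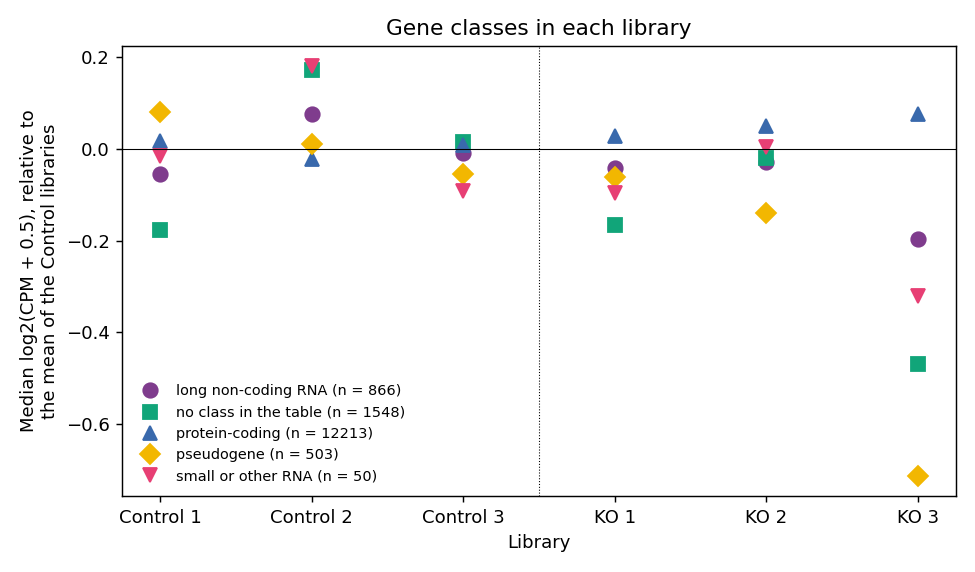
Median over genes of log2(CPM + 0.5) relative to the mean of the Control libraries, for each gene class of at least 50 tested genes and each library. In these 5 classes the other 5 libraries lie within 0.2 of 0, while Kdm6b-KO replicate 3 lies at -0.71 for pseudogenes and -0.47 for genes without a class.

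The called non-coding genes differed in how far they rested on single libraries. The pseudogene Eif5al3-ps, a processed copy related to a translation factor gene, rose from 2.46, 5.46 and 1.68 CPM to 27.9, 31.2 and 36.4 CPM (log2 fold change 3.34 with an SE of 0.38; adjusted p = 0.00058). The long non-coding RNA 2610507I01Rik fell from 20.6, 23.8 and 19.4 CPM to 2.36, 2.51 and 1.29 CPM (log2 fold change -3.40 with an SE of 0.34; adjusted p = 0.000208). It carries a predicted-gene name and was named after its values were seen. Both were called in all 6 fits that leave out a library, by DESeq2 and by limma-voom. Cep83os, an antisense transcript, fell from 45.9, 44.7 and 47.3 CPM to 22.1, 16.6 and 24.3 CPM (log2 fold change -1.13 with an SE of 0.22; adjusted p = 0.0376). Tnfsf13os, at 19.04, 8.13 and 16.1 CPM against 2.19, 3.27 and 3.61 CPM, and Arhgap27os3, at 5.53, 4.32 and 4.97 CPM against 11.6, 25.4 and 14.5 CPM, fell and rose respectively. Of the 6 fits that leave out a library, Cep83os was called in 1, Arhgap27os3 in 2 and Tnfsf13os in 4, and limma-voom called none of these 3 (adjusted p = 0.0582 for Cep83os and Tnfsf13os and 0.102 for Arhgap27os3). Tnfsf13os overlaps Tnfsf13, Tnfsf12 and Senp3, and Arhgap27os3 overlaps Arhgap27, so sense and antisense reads may be mixed. Reads of pseudogenes cannot be told from those of their parent genes where the sequences are near-identical, and Rplp0-ps1, at 41, 25 and 25 counts in Control and 5, 3 and 3 in Kdm6b-KO, is uncertain for that reason.

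Chromosome 11, which carries Kdm6b, held 27 of the 59 called genes with a position, 13 higher and 14 lower, among 1121 tested genes. That is 2.41% of its tested genes, against 0% to 0.633% on each other nuclear chromosome and 0.461% overall. For the typical gene the difference from 0 lay at the upper end of the range of the other autosomes. The median size of the log2 fold change was 0.32 on chromosome 11, and the other autosomes ranged from 0.24 on chromosome 12 to 0.32 on chromosome 7. In the tail the chromosome stood out, with a 95th percentile of 1.24 against at most 1.12 on any other autosome. Non-overlapping groups were found in 25.9% of its genes, against 20.5% overall and 24.1% on chromosome 10, the next highest autosome.

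The called genes were not gathered at Kdm6b itself. From Hmmr, 28.7 Mb before the middle of Kdm6b, they reached to Fn3krp, 52.0 Mb after it. In the first 10 Mb on either side 8 of 280 genes were called, and from 20 to 50 Mb after Kdm6b 13 of 359. By bins of 10 Mb the called share was 3.06% just before and 2.75% just after Kdm6b. From 20 to 50 Mb after it the share was 3.48% to 3.79%, beside 2.41% of the chromosome and 0.461% of all tested genes. No gene was called among the 174 tested genes more than 30 Mb before Kdm6b, of which 25 had an unadjusted p under 0.05. Over all tested genes 0.461% were called and 14.8% had such a p, so both counts lie near the share over all genes. Neighbours differed in direction: within 4 Mb after Kdm6b, Nlrp1b and Camkk1, a calmodulin-dependent kinase kinase, rose, while Nlrp1a, Xaf1 and Tnfsf13os fell. When the test was fitted without chromosome 11, 19 of the other 43 called genes were called, 12 higher and 7 lower.

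**Figure D5:**
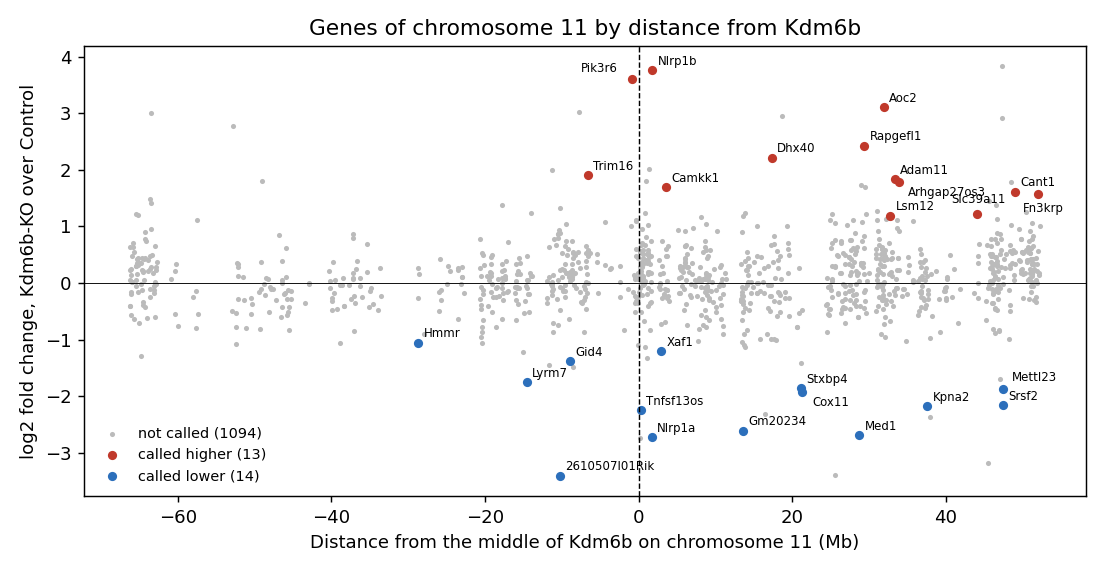
Log2 fold change of the 1121 tested genes of chromosome 11 against their distance from the middle of Kdm6b in Mb (dashed line), with called genes named in red (13 higher) and blue (14 lower). Called genes run from -28.7 to 52.0 Mb in both directions of change, and none lies farther before Kdm6b.

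Gene lists gave small shifts spread over many members, few of which passed. They are set beside all tested genes and not beside genes of like level. In the bin from 100 to 1000 CPM the median was -0.14, with 316 of 2368 genes lower at an unadjusted p under 0.05. Among 30 tested genes of mitosis, 27 had a negative log2 fold change, with a median of -0.49 beside -0.00125 over all genes. Kpna2 and Hmmr, a spindle-associated hyaluronan receptor (112.7, 88.4 and 90.4 CPM against 56.3, 42.6 and 41.7 CPM, adjusted p = 0.0323), were the 2 that fell, which is 6.67% of the list, beside 0.461% of all tested genes. Both lie on chromosome 11, where 2.41% of tested genes were called. Hmmr was called in 3 of the 6 fits that leave out a library (highest adjusted p 0.250), and neither under library totals nor by limma-voom. At an unadjusted p under 0.05, 15 of the 30 (50%) were lower and 0 higher, beside 7.22% lower and 7.63% higher of all. Under library totals the median was -0.34. The 34 S-phase genes had 27 negative values and a median of -0.32, with 0 called and 10 lower and 1 higher at an unadjusted p under 0.05 (32.4%, beside 14.8% of all). Library totals moved this median to -0.18. Their most abundant member was Rrm1, a subunit of ribonucleotide reductase, at 360.5 to 435.3 CPM in Control and 259.5 to 308.0 CPM in Kdm6b-KO. Cdkn1b, the cyclin-dependent kinase inhibitor p27, stood at 144.4, 399.5 and 260.5 CPM against 92.3, 120.3 and 79.5 CPM (adjusted p = 0.106) and was called by DESeq2 (adjusted p = 0.000356) and without Control replicate 1 (adjusted p = 0.000534). Erythroid markers also had 13 of 16 negative values and a median of -0.81, and Car2, the most abundant of them, stood at 10760, 9643 and 7937 CPM against 5265, 4453 and 5577 CPM (adjusted p = 0.150). The part of erythroid progenitors in the lower cell-cycle values was not tested, and in bulk libraries fewer cells of a type and less RNA per cell cannot be told apart.

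Immediate-early genes leaned the other way. Of 37 tested members 30 had a positive log2 fold change, the median was 0.71, and 4 rose (Fos, Fosb, Dusp1 and Ppp1r15a) while 0 fell, so that 10.8% were called, beside 0.461% of all tested genes. A further 13 were higher and 2 lower at an unadjusted p under 0.05, which with the 4 called makes 51.4% of the list, beside 14.8% of all. Zfp36, which binds AU-rich messages for decay, stood at 43.2, 47.5 and 107.6 CPM against 198.1, 364.5 and 236.9 CPM (adjusted p = 0.0754), and Jun, the partner of Fos in AP-1, at 27.2, 5.72 and 15.1 CPM against 45.9, 111.6 and 63.0 CPM (adjusted p = 0.193). Kdm6b-KO replicate 2 was the highest library for both. Atf3 had 0 counts in all 6 libraries. The 20 tested genes of NF-kappaB signalling had 17 positive values with a median of 0.31, with 0 called and 6 higher and 0 lower at an unadjusted p under 0.05 (30% of the list).

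Interferon-response genes split. Of 42 tested, Ifi44l and Gbp2b rose and Xaf1 and Ifit1bl1 fell, which makes 9.52% called, beside 0.461% of all tested genes. A negative value was found in 31, with a median of -0.18 that library totals moved to -0.03. Rsad2, an antiviral enzyme, stood at 52.7, 57.2 and 53.2 CPM against 31.0, 35.5 and 32.7 CPM (adjusted p = 0.120). Its groups did not overlap, in the direction opposite to that of Ifi44l. Of 33 Mediator genes Med1 alone was called and 18 had a positive value (median 0.06), with 3 higher and 2 lower at an unadjusted p under 0.05 (15.2%, beside 14.8% of all). Of 33 SR and hnRNP splicing genes Srsf2 alone was called, with 23 negative values (median -0.13, which turned to 0.02 under library totals). At an unadjusted p under 0.05, 7 of these splicing genes were lower and 0 higher (21.2%), and in 10 (30.3%) the groups did not overlap, each time with Kdm6b-KO lower, beside 20.5% of all genes in either direction and 9.49% lower. All genes are not matched to this list for level. From 100 to 1000 CPM the median was -0.14, and 395 of 2368 genes had non-overlapping groups with Kdm6b-KO lower.

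Several other lists had 0 called genes, beside 0.461% of all tested genes called and 14.8% with an unadjusted p under 0.05. The 38 Polycomb and H3K27 genes had a median of 0.11 and 5 genes at an unadjusted p under 0.05 (13.2%), and the 31 trithorax and enhancer cofactor genes a median of 0.08 and 4 such genes (12.9%). For the 37 proteasome genes the median was -0.02 with 1 such gene (2.7%), and for the 30 stem cell transcription factors it was -0.02 with 7 (23.3%). Under library totals both of these medians turned to 0.13. Glycolysis genes had 17 of 20 positive values (median 0.20) and lysosome and autophagy genes 24 of 31 (median 0.23), with 2 genes at an unadjusted p under 0.05 in each (10% and 6.45%). For the 8 tested mitochondrially encoded genes the median was 0.01 with 0 at that threshold.

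Replicates were then compared across genes. Over the 9851 genes with a mean of 10 CPM or more, Pearson's r of log2 CPM across genes was 0.920 to 0.965 for pairs within Control, 0.939 to 0.958 within Kdm6b-KO and 0.887 to 0.955 for the 9 pairs between groups, so the ranges overlapped. Control was the more variable group, mostly in pairs with its replicate 1. Those pairs differed by over 2-fold in 952 and 689 genes. Control replicates 2 and 3 did so in 223, within the range of 112 to 234 for pairs within Kdm6b-KO. The 3 Control values spanned more than 2-fold in 1356 genes and the 3 Kdm6b-KO values in 407, with 182 genes in both sets. Control replicate 1, the shallowest library, was the value farthest from the others in 61.7% of the former, and Kdm6b-KO replicate 3 in 51.1% of the latter. The first principal component carried 42.4% of the variance and separated the groups, with Control at 14.65 to 35.9 and Kdm6b-KO at -34.5 to -12.7. The second carried 26.9% and set Control replicate 1, at 39.9, apart from the other 5 libraries, which lay between -18.3 and 2.94.

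The genes with the largest within-group spread of log2 CPM were ranked among those with a mean of 50 CPM or more. In Kdm6b-KO these were the neutrophil granule genes Mpo, Elane, Ngp and S100a9 and the predicted genes Gm10800 and Gm10801. Mpo, which encodes myeloperoxidase, stood at 772.8, 356.9 and 547.0 CPM in Control and at 1094, 55.9 and 20.3 CPM in Kdm6b-KO, so that replicate 1 held the highest and replicates 2 and 3 the lowest values of all 6 libraries. Without Kdm6b-KO replicate 1 its log2 fold change went from -0.52 (adjusted p = 0.923) to -3.88 (adjusted p = 0.00963). Gm10801 was at 140.8 to 303.6 CPM in 5 libraries and at 2.72 CPM in Kdm6b-KO replicate 3. In Control the largest spread belonged to BC018473, a long non-coding RNA gene of chromosome 11 0.092 Mb from Srsf2, with 0.154, 50.7 and 1.10 CPM in Control against 246.7, 184.7 and 298.2 CPM in Kdm6b-KO (adjusted p = 0.429). All 3 Kdm6b-KO values exceeded the highest Control value, and without Control replicate 2 the adjusted p of BC018473 was 2.01e-06. Fth1, the ferritin heavy chain, was low in Control replicate 1 only, at 156.8 CPM against 1337 to 2366 CPM in the other 5 libraries.

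The called set was unequal in how far it rested on single libraries. Leaving out each library in turn gave between 20 and 519 called genes: 519 without Control replicate 1, 161 without Control replicate 3, 97 without Kdm6b-KO replicate 1, 46 without Control replicate 2, 24 without Kdm6b-KO replicate 2 and 20 without Kdm6b-KO replicate 3. Of the 70 genes, 19 were called in each of these 6 fits (12 higher and 7 lower, 9 of them on chromosome 11), and 18 of the 19 were also called by DESeq2 and by limma-voom. The 19 included Ifi44l, Gbp2b, Klhl42, Med1, Stxbp4, Kpna2, Nlrp1b, Aoc2, Trim16, Dhx40 and Pik3r6, the last a regulatory subunit of phosphoinositide 3-kinase gamma. A further 9 genes were called in only 1 of the 6 fits, among them Nlrp1a, Rplp0-ps1 and Cep83os. Srsf2 lost its call without Kdm6b-KO replicate 2 (adjusted p = 0.100) and without Kdm6b-KO replicate 3 (adjusted p = 0.104), and Fos was called in 4 of the 6 fits, with its highest adjusted p, 0.0982, without Kdm6b-KO replicate 3. In every fit that tested them, the 70 genes kept the sign of their log2 fold change. Their groups did not overlap over the 6 libraries, so the sign could hardly turn, and keeping it is not a check of the calls.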

How the data were processed

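RNA was made into libraries from 3 to 5 ng with a SMARTer Ultra Low kit, per the labels' protocols. Each deposited file lists raw counts by Ensembl gene ID, with mm10 as the build per the labels. STAR 2.0.4, featureCounts 1.4.5, HTSeq 0.8.0 and Partek 6.6 are named in the submitters' processing notes with no roles, and the annotation release and strand setting are not stated in the sources used here. Reads assigned to genes made up 16.5% to 19.7% of each file; lines for unassigned reads were left out.

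Genes were tested on genotype with edgeR 4.0.16 (R 4.3.3): filterByExpr, TMM factors, robust quasi-likelihood fit, Benjamini-Hochberg adjustment over 15185 genes, threshold 0.05, two-sided. Fold changes are Kdm6b-KO divided by Control. The scripts were tested on simulated data. DESeq2 1.42.0 and limma 3.58.1 were alternatives. No 2 libraries of the same group were duplicates (chi-square per degree of freedom 16.8 or more). Classes and positions were matched by symbol to RefSeq GRCm38.p6 and covered 89.8% of tested genes.

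The members, gene lists and rule for named genes were chosen with earlier results of these data known. The rule took Kdm6b and Kdm6a, the 3 called genes of smallest p per expression bin and direction, called non-coding genes with a symbol, up to 2 members per list and direction, the 6 most abundant genes and the 6 of largest spread per group among genes with a mean of 50 CPM or more. Abcg1, Cdk6, Eef2, Mettl23, Nfia, Cbx3, Fos, Ppp1r15a, 2610507I01Rik, Camkk1, Trim16, Dhx40, Pik3r6, Fn3krp, Zfp36, Jun, Rsad2, Slamf1, Kit, Cd48, Btg2, Maff, Plk2, Dusp5 and the genes with under 20 counts were named after their values were seen.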

Additional observations from a re-analysis of the deposited data

How the results depend on the processing

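The number of called genes depended on the tool and on the filter. In place of 70 (37 higher and 33 lower), DESeq2 called 467 (189 and 278), limma-voom 42 (23 and 19), edgeR with no filter on low counts 576 (249 and 327), edgeR on library totals 100 (70 higher) and edgeR without chromosome 11 genes 19 (12 and 7). The call counts of the alternatives share genes: DESeq2 and the unfiltered fit kept all 70, limma-voom 38 and library totals 65. Leaving out 1 library gave 20 to 519 called genes, 13 to 187 higher and 7 to 332 lower. RLE factors (72) and a filter of 10 CPM in 3 libraries (52) moved the count by less than 1.5 times. The cause of these differences was not tested. A replicate block on the shared numbers called 88 genes (35 higher and 53 lower), of which 56 were among the 70. Pairing by these numbers was not shown: deviations of same-numbered libraries correlated at 0.0685, 0.196 and -0.13, and those of differently numbered libraries at -0.218 to 0.107. Such correlations cannot exclude a batch shared by a number, and the labels do not say what a number marks. Of the 264 tested genes with a mean under 1 CPM, 0 were called by edgeR, DESeq2 or limma-voom in any of these fits (8 higher and 10 lower at an unadjusted p under 0.05 in edgeR's test as reported); 3 counts equal up to 0.461 CPM at this depth.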
